A study of Mus musculus with 9 samples.

Results

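The collagen genes are the 44 rows of the deposited count tables, out of 24016, whose gene symbol is Col, a number, the letter a and a further number, such as Col1a1. They were chosen by name alone and were sorted by textbook chain type into 11 fibrillar chains, 6 basement membrane chains (the type IV chains), 6 type VI chains, 9 fibril-associated chains and 12 chains of other types. RNA sequencing counts of these genes were compared among 9 libraries in 3 groups of 3: whole intestine treated with cyclopamine, separated epithelium and separated mesenchyme, the layers with no agent listed. All groups came from wild type C57BL/6 mouse embryos at E14.5, and the series design puts intestines in transwell culture for 24 hours with or without cyclopamine, a plant alkaloid that blocks Smoothened, the transducer of hedgehog signals. Whether the separated layers were also cultured is not given in the labels, nor whether each library holds one embryo or a pool, and the p-values then measure only how these libraries vary, which may be technical. Untreated whole intestine was not analysed here. Whole treated tissue is therefore set against single untreated layers, and treatment, tissue makeup and culture cannot be told apart in those comparisons.

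Collagens are secreted or membrane-bound proteins built from alpha chains that wind around each other into a stiff helix, and each alpha chain has its own gene. Fibrillar collagens form the tensile fibres of connective tissue, type IV collagen forms the sheet-like network of basement membranes, type VI collagen forms beaded microfibrils around cells, and fibril-associated collagens coat the surface of fibres. In the gut wall, fibroblasts and smooth muscle cells of the mesenchyme are known as the main makers of fibrillar collagen, and the basement membrane lies between epithelium and mesenchyme. In bulk tissue, fewer cells of a type and less RNA per cell cannot be told apart.

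Total counts were 9739394 to 26357115 per library. Rn45s, a ribosomal precursor, made up 59.1% of mesenchyme 1, against 0.112% to 1.19% in the others, which left 3284702 counts outside the ribosomal and mitochondrial rows Rn45s, Lars2 and Mir6236, so low-level members are least precise there. Epithelium markers (10 genes, such as Epcam and Cdx2) summed to 1663 to 2038 CPM (counts per 1e6 counts, with library sizes scaled by the TMM method) in treated intestine, 4405 to 4735 CPM in epithelium and 134 to 152 CPM in mesenchyme. Mesenchyme markers (8 genes, such as Pdgfra and Foxf1) summed to 999 to 1034 CPM in treated intestine, 77.9 to 172 CPM in epithelium and 1947 to 2231 CPM in mesenchyme. The hedgehog targets Gli1, Ptch1, Hhip and Foxl1 together stood at 39.2 to 69.2 CPM in treated intestine, 48.5 to 73.3 CPM in epithelium and 571 to 1043 CPM in mesenchyme.

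The results turn on members of opposite layer pattern, and the 250 bases upstream of the RefSeq start are shown for 4 of them (GRCm38.p6, plus strand, 5′ to 3′). Col3a1 (chr1:45311288-45311537) and Col5a1 (chr2:27886175-27886424) were lower in epithelium than in mesenchyme, whereas Col11a2 (chr17:34038888-34039137) was higher and Col7a1 (chr9:108953336-108953585) did not pass the test. Capitals mark matches on either strand to the CCAAT box (CCAAT), the GC box (GGGCGG) or the TATA box (TATAAA).
Col3a1: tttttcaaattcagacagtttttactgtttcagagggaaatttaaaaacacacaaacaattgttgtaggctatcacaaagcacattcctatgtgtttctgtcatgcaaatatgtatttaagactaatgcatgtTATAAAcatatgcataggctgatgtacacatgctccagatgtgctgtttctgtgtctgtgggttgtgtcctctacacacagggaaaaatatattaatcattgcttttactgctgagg
Col5a1: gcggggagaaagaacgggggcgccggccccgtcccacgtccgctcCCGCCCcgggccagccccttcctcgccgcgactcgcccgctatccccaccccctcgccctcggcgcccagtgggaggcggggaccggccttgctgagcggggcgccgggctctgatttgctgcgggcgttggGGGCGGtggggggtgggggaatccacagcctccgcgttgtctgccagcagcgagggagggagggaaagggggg
Col11a2: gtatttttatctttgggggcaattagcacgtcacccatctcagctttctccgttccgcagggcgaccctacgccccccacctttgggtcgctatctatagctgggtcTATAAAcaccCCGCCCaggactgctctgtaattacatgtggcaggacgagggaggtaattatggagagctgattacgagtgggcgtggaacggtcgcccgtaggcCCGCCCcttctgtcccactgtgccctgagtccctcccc
Col7a1: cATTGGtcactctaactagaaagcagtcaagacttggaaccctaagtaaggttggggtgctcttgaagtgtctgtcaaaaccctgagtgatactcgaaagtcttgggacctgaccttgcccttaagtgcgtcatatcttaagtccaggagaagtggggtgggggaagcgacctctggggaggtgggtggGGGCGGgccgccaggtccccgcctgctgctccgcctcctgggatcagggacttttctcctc
In these windows Col3a1 held a single TATAAA, Col5a1 a GGGCGG on each strand, Col11a2 a TATAAA beside a pair of reverse-strand GGGCGG matches, and Col7a1 a reverse-strand CCAAT and a GGGCGG. RefSeq gave 38 upstream windows for 35 of the 44 members. CCAAT stood in 13 of the 38, against 33.8% of all 32851 windows, GGGCGG in 22 against 32.7%, and TATAAA in 5 against 12.4%. The hedgehog effector (Gli) motif GACCACCCA stood in 0 of the 38 and in 0.225% of all windows. Matches of one motif can overlap each other, as pairs of GGGCGG matches do in windows of Col6a2 and Col8a2, and each window is counted once. A match or its lack describes the letters only.

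Collagen transcripts were far lower in epithelium than in mesenchyme. They took 0.211%, 0.0659% and 0.0403% of all counts in epithelium 1 to 3, against 0.735%, 2.47% and 2.74% in mesenchyme 1 to 3. The 95% Wilson intervals of these shares, which cover counting error only, were narrow, for example 0.0395% to 0.0412% in epithelium 3 and 0.729% to 0.740% in mesenchyme 1. The 3 epithelium shares lay below the 3 mesenchyme shares, and the two-sided exact permutation test gave p = 0.1, the smallest that 3 against 3 libraries allow. With the 3 ribosomal and mitochondrial rows set aside, mesenchyme 1 stood at 2.18%, close to the other mesenchyme libraries.

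Of the 42 members with enough counts to be tested, 38 were lower in epithelium than in mesenchyme and 1, Col11a2, was higher (edgeR quasi-likelihood test, Benjamini-Hochberg adjusted p under 0.05 over 15699 genes). Over all genes tested, 35.1% were lower and 34.6% higher, so the share of lower members was well above the background. The median log2 difference (epithelium minus mesenchyme) was -4.36 over the members and 0.04 over all genes. The 3 members that did not pass were Col4a3, Col7a1 and Col19a1. The libraries of the 2 layers did not overlap for 38 members that were lower in epithelium and 2 that were higher, against 35.3% and 38.3% of all genes. Of the 39 calls, 38 held in every alternative setting that gave an adjusted p; Col20a1 was lost without epithelium 2.

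**Figure D1:**
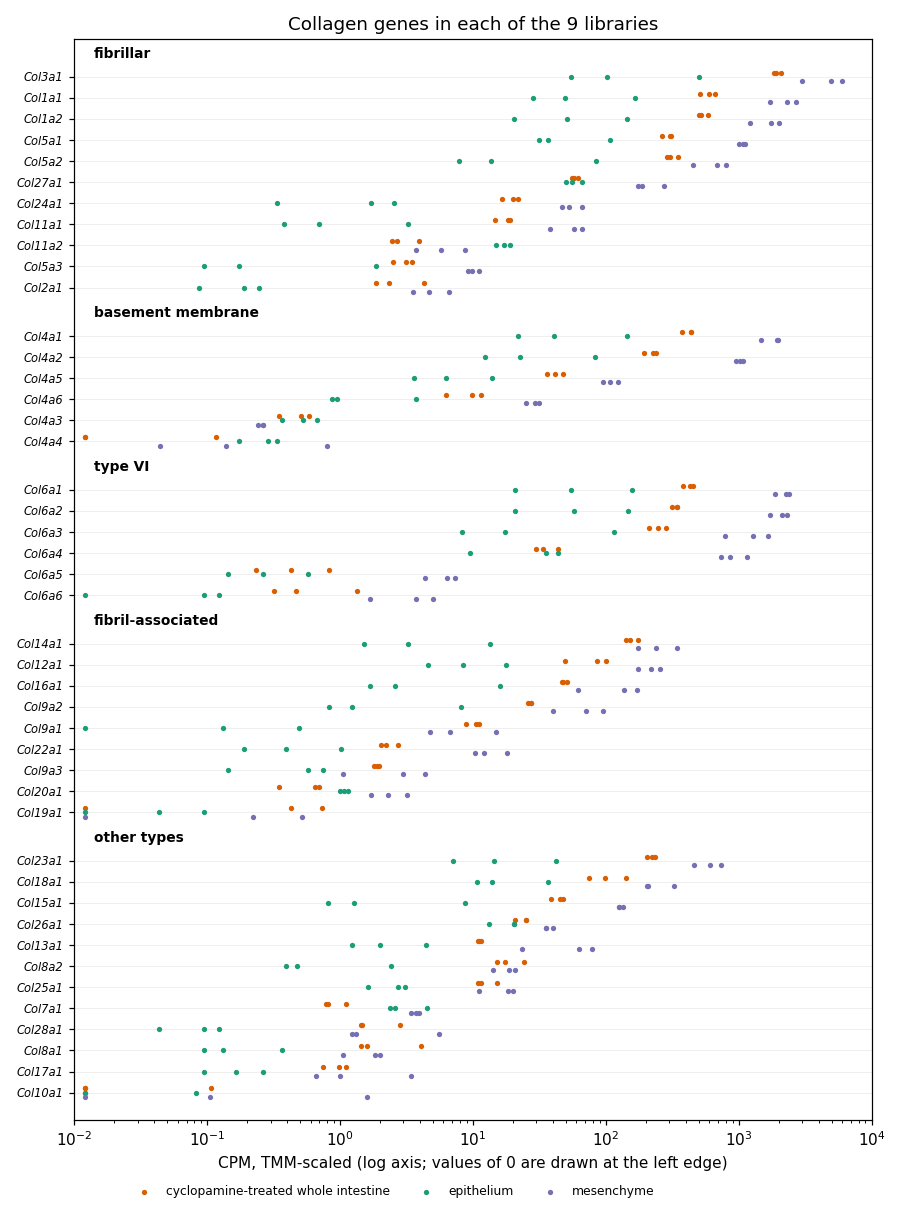
TMM-scaled CPM (log axis; values of 0 at the left edge) of the 44 collagen genes, grouped by chain type, with 1 point per library: cyclopamine-treated intestine above, epithelium on and mesenchyme below each gene's line. For 25 of the 42 tested genes the 3 treated libraries lie between all epithelium and all mesenchyme libraries, and Col11a2 is highest in epithelium. The share of all genes with this order was not computed, so the count is not read as a trait of collagens.

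The epithelium libraries differed among themselves in most collagens. Relative to the mesenchyme mean, summed collagen CPM stood at 9.04%, 2.88% and 1.76% in epithelium 1 to 3. Some marker lists of non-epithelial cells also stood highest in epithelium 1 and lowest in epithelium 3. The 7 smooth muscle markers summed to 7.80%, 2.67% and 1.55% of their mesenchyme mean, the 6 endothelium markers to 6.43%, 1.93% and 1.09%, and the enteric neural crest and glia list to 7.20%, 4.57% and 3.20%. The low bone and skeletal muscle lists had this order as well, at 33.4%, 5.25% and 5.14% for bone and 54.3%, 24.8% and 18.1% for skeletal muscle. The remaining lists had another order: mesenchyme markers stood at 8.08%, 3.65% and 4.42%, leukocyte markers at 14.1%, 16.6% and 7.47%, mesothelium markers at 45.7%, 35.4% and 38.4% and cartilage and notochord markers at 22.8%, 23.7% and 27.9%. In CPM, the smooth muscle list summed to 43.2 to 217 CPM in epithelium and 2032 to 3194 CPM in mesenchyme, the endothelium list to 6.82 to 40.3 CPM in epithelium and 536 to 721 CPM in mesenchyme, and no gene of either list was at 0 in every library. The part of such cells in the epithelium collagen levels was not tested.

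Over the 29 members with at least 10 CPM in mesenchyme, the ratio of epithelium 1 to epithelium 3 had a median of 6.56. Some members varied far less. Of these, Col27a1, Col25a1 and Col20a1 were named after their values were seen. The ratio was 0.872 for Col11a2, 0.842 for Col27a1, 0.884 for Col25a1, 0.929 for Col20a1, 1.01 for Col26a1 and 1.89 for Col7a1. Col27a1, a fibrillar chain known from cartilage, had 55.5, 50.6 and 65.9 CPM in epithelium 1 to 3, against 274, 175 and 188 CPM in mesenchyme. Col26a1, a small secreted chain, kept 55.2%, 35.6% and 54.8% of its mesenchyme mean in epithelium 1 to 3.

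**Figure D2:**
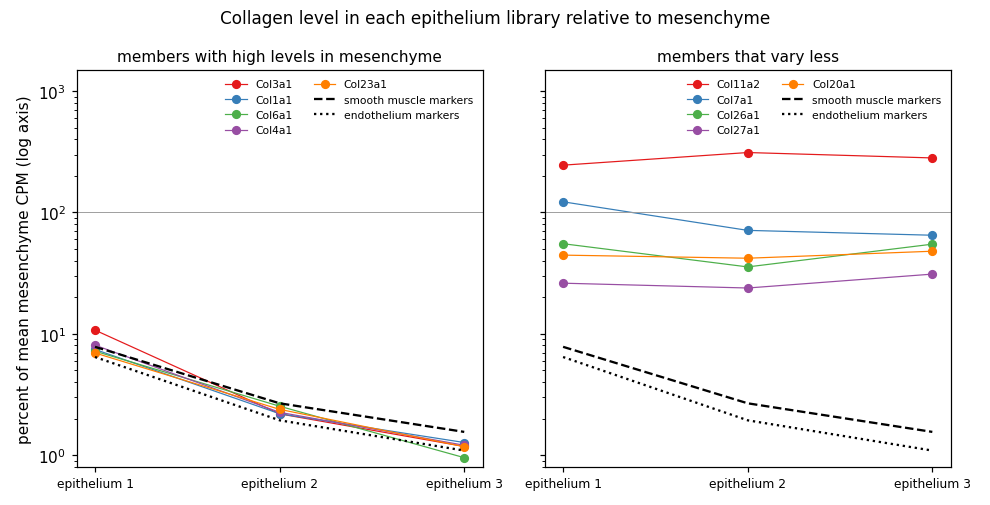
Level in each epithelium library as a percent of the mean mesenchyme CPM (log axis), with 1 line per gene and marker sums in black; lines only join values of a gene, since replicates have no order. Members with high levels in mesenchyme (left) are highest in epithelium 1, as are the smooth muscle and endothelium markers, and summed collagens stand at 9.04%, 2.88% and 1.76%; Col11a2, Col26a1, Col27a1 and Col20a1 (right), with epithelium 1 to epithelium 3 ratios of 0.842 to 1.01, and Col7a1, with 1.89, vary less.

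In treated intestine, collagens stood between the layers. They took 0.759%, 0.695% and 0.806% of all counts in treated 1 to 3, and summed to 6284, 5777 and 6771 CPM in treated intestine, 1970, 628 and 384 CPM in epithelium and 18939, 21323 and 25145 CPM in mesenchyme. The summed CPM of treated intestine did not overlap with either layer (exact permutation test, p = 0.1 against each, the smallest possible), but as a share of all counts treated intestine overlapped with mesenchyme through mesenchyme 1 (p = 0.3).

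Against mesenchyme, 25 of the 42 tested members were lower in treated intestine and 0 higher, where 20.4% of all genes were lower and 20.8% higher. The median log2 difference (treated minus mesenchyme) was -1.49 over the members and -0.02 over all genes. At an unadjusted p under 0.05, 0 members were higher, and DESeq2 called 0 higher as well. The 3 treated libraries lay below the 3 mesenchyme libraries for 30 members and above them for 1 (Col4a3), against 26.8% and 28.0% of all genes. The count of lower members was 11 without treated 1 and also 11 without treated 2, and the direction of every call held. The calls of Col5a1, Col6a1, Col6a2, Col6a4, Col6a5, Col7a1, Col13a1, Col20a1, Col22a1 and Col27a1 held in all 15 alternatives. The remaining 15 calls did not, and those of Col18a1, Col1a2, Col23a1 and Col6a3 held in 6, 8, 9 and 10 alternatives in the order named.

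Against epithelium, 33 members were higher in treated intestine and 2, Col11a2 and Col7a1, were lower, where 32.1% of all genes were higher and 29.8% lower. The treated and epithelium libraries did not overlap for 34 members higher and 3 lower in treated intestine, against 38.2% and 39.5% of all genes. The median log2 difference (treated minus epithelium) was 2.46 over the members and -0.02 over all genes. The comparisons of treated intestine with mesenchyme and of epithelium with mesenchyme share the mesenchyme libraries, so their values stand side by side below without a measure of their likeness.

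**Figure D3:**
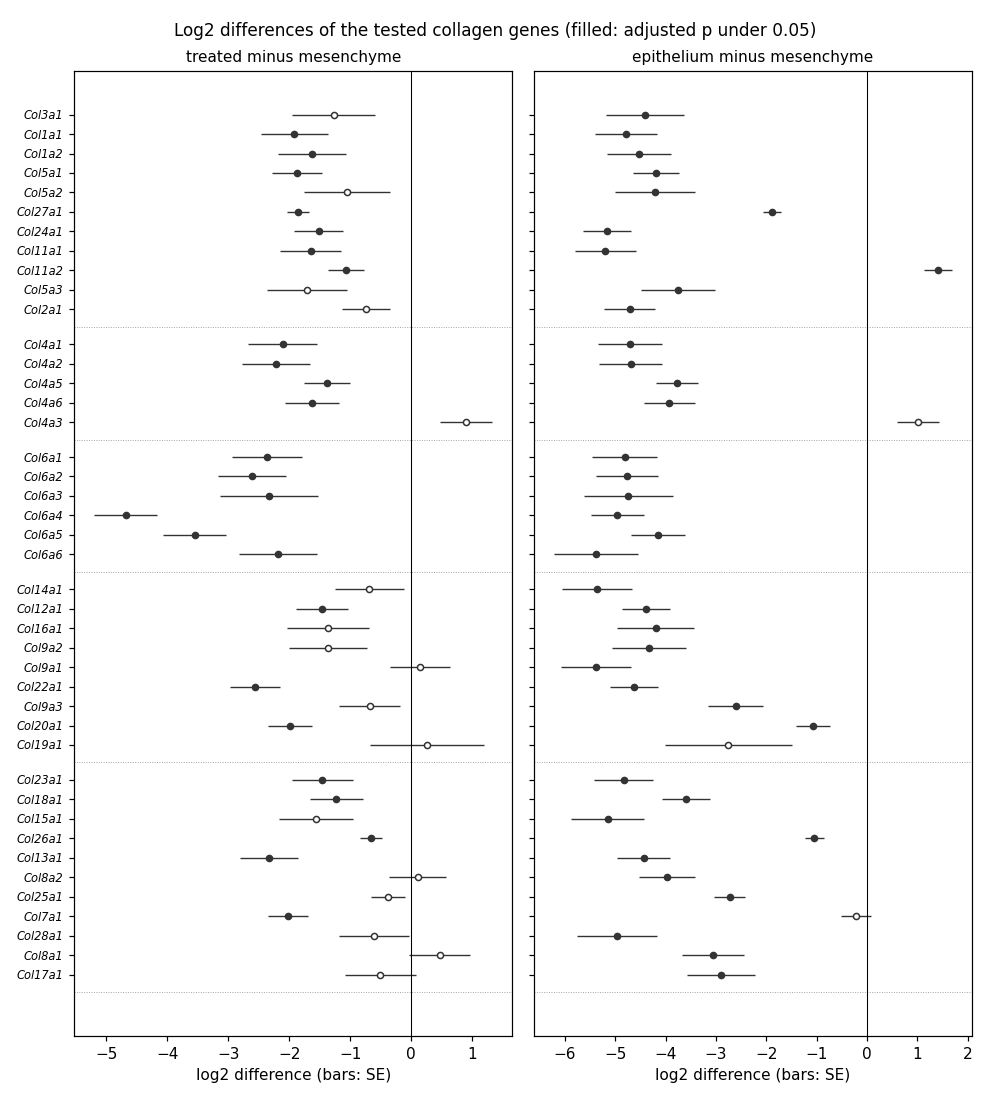
Log2 differences of the 42 tested collagens (points, with SE bars) for treated minus mesenchyme (left) and epithelium minus mesenchyme (right), grouped as fibrillar, basement membrane, type VI, fibril-associated and other types from top to bottom; filled points have an adjusted p under 0.05. On the left 25 points are filled, all below 0, with Col6a4 lowest at -4.68; on the right Col11a2 is the filled point above 0.

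Among fibrillar chains, Col3a1, the chain of type III collagen found in distensible organs, was the collagen with the highest level in every group per kilobase of transcript, at 348 ± 22.5 CPM per kb in treated intestine, 39.4 ± 44.0 in epithelium and 840.0 ± 276 in mesenchyme (SD, n = 3 each). It had 1840.1, 1897 and 2079 CPM in treated 1 to 3, 501, 102 and 55.0 CPM in epithelium and 3009, 4973 and 6039 CPM in mesenchyme. The groups did not overlap, but the treated against mesenchyme difference did not pass the test (log2 difference -1.27, SE 0.68, adjusted p = 0.161). Col3a1 passed in 2 of 15 alternatives, such as a fit of treated and mesenchyme libraries alone (adjusted p = 0.0124). In the others its adjusted p reached 0.321.

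Col1a1 and Col1a2 encode the chains of type I collagen, the main protein of connective tissue fibres. Col1a1 had 599, 511 and 669 CPM in treated intestine, 166, 49.0 and 28.4 CPM in epithelium and 2683, 1713 and 2316 CPM in mesenchyme (log2 difference -1.92, SE 0.55, adjusted p = 0.0202, treated against mesenchyme). Col1a2 had 522, 505 and 588 CPM in treated intestine, 144, 50.8 and 20.6 CPM in epithelium and 1219, 1749.5 and 2005 CPM in mesenchyme (log2 difference -1.62, SE 0.56, adjusted p = 0.0417). The level ratio of Col1a1 to Col1a2 per kb was 1.03, 0.912 and 1.03 in treated intestine and 1.04, 0.870 and 1.25 in epithelium. In mesenchyme it was 1.98, 0.883 and 1.04, so mesenchyme 1 stood apart. Col5a1, a type V chain that starts and limits fibril growth, had 306, 264 and 308 CPM in treated intestine, 108, 36.5 and 31.6 CPM in epithelium and 1076, 1014 and 1120.4 CPM in mesenchyme. It was lower in both others than in mesenchyme (log2 difference -1.87, SE 0.40, adjusted p = 0.00568 for treated and log2 difference -4.19, SE 0.45, adjusted p = 2.49e-05 for epithelium).

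Col11a2, a type XI chain best known from cartilage, was the 1 member called higher in epithelium than in mesenchyme. It had 2.44, 2.67 and 3.95 CPM in treated intestine, 14.9, 18.9 and 17.1 CPM in epithelium and 3.71, 8.73 and 5.77 CPM in mesenchyme. Every epithelium library lay above every other library, while treated 3 overlapped with mesenchyme 1. It was higher in epithelium than in mesenchyme (log2 difference 1.40, SE 0.28, adjusted p = 0.00151), lower in treated intestine than in epithelium (log2 difference -2.48, SE 0.29, adjusted p = 8.34e-05) and lower in treated intestine than in mesenchyme (log2 difference -1.07, SE 0.30, adjusted p = 0.0175). The summed cartilage and notochord markers were low throughout, at 12.2 to 15.7 CPM in treated intestine, 1.64 to 2.00 CPM in epithelium and 6.35 to 7.62 CPM in mesenchyme, most of it from Hapln1 in treated intestine, with Ucma at 0 in every library.

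In all, 7 of the 11 fibrillar members were lower in treated intestine than in mesenchyme, with log2 differences of -1.92 to -0.74 over the 11 (median -1.62), and 10 were lower in epithelium. The count against mesenchyme was 2 without treated 1, 2 without treated 2 and 4 without treated 3. Col3a1, Col5a2, Col5a3 and Col2a1 did not pass. Against epithelium, 9 fibrillar members were higher in treated intestine. Over all genes, 20.4% were lower in treated intestine than in mesenchyme and 35.1% were lower in epithelium than in mesenchyme. Against epithelium, 32.1% were higher in treated intestine. These shares also stand beside the counts of each chain type below.

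Of the 5 basement membrane chains tested, 4 were lower than in mesenchyme in treated intestine and in epithelium, and Col4a3 did not pass in either. The treated against mesenchyme count was 1 without treated 1 and 0 without treated 2. Col4a1 and Col4a2 form the network of nearly all basement membranes, and Col4a5 and Col4a6 encode chains known from smooth muscle and some epithelial basement membranes. Col4a1 had 441, 375 and 436 CPM in treated intestine, 145, 40.5 and 21.7 CPM in epithelium and 1477, 1953 and 1976 CPM in mesenchyme (log2 difference -2.11, SE 0.57, adjusted p = 0.0158, treated against mesenchyme). Col4a2 had 226, 193 and 238 CPM in treated intestine, 82.6, 22.8 and 12.3 CPM in epithelium and 948, 1026 and 1083 CPM in mesenchyme (log2 difference -2.22, SE 0.56, adjusted p = 0.0119). Neither gene's groups overlapped.

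The Col4a1 to Col4a2 level ratio per kb was 1.90, 1.90 and 1.79 in treated intestine, 1.71, 1.73 and 1.72 in epithelium and 1.52, 1.86 and 1.78 in mesenchyme. These genes lie head to head on opposite strands with overlapping first exons in the GENCODE M21 annotation, and the strand setting of the counting is not given, so reads from the overlap cannot be told apart. Col4a5 had 41.6, 35.9 and 47.6 CPM in treated intestine, 13.9, 6.23 and 3.63 CPM in epithelium and 94.8, 108 and 123 CPM in mesenchyme (log2 difference -1.38, SE 0.38, adjusted p = 0.0166). Its head-to-head neighbour Col4a6 had 9.77, 6.33 and 11.5 CPM in treated intestine, 3.72, 0.872 and 0.954 CPM in epithelium and 31.5, 25.3 and 29.3 CPM in mesenchyme (log2 difference -1.63, SE 0.45, adjusted p = 0.0171).

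These 4 chains were also higher in treated intestine than in epithelium. Col4a3 stayed at 0.243 to 0.668 CPM in every library and passed no test, with each treated and each epithelium library above every mesenchyme library (log2 difference 0.90, SE 0.42, adjusted p = 0.115 for treated and log2 difference 1.00, SE 0.42, adjusted p = 0.0542 for epithelium against mesenchyme). In mesenchyme 1, 1 count equals 0.265 CPM, so this order of libraries rests on very few counts there. Col4a4, with 0 to 7 counts per library, was too low to be tested.

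All 6 type VI chains were lower in treated intestine than in mesenchyme, with a median log2 difference of -2.49, from -4.68 (Col6a4) to -2.19 (Col6a6). All 6 were also lower in epithelium (median -4.79). Col6a1, Col6a2 and Col6a3 encode the chains of the common type VI molecule, and Col6a4, Col6a5 and Col6a6 encode chains that can take the place of the Col6a3 chain. The treated against mesenchyme count was 4 without treated 1, without treated 2 or without mesenchyme 3.

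Col6a1 had 451, 385 and 431 CPM in treated intestine, 156, 55.0 and 20.7 CPM in epithelium and 1865, 2265 and 2397 CPM in mesenchyme (log2 difference -2.37, SE 0.57, adjusted p = 0.00978). Col6a2 had 343, 315 and 346 CPM in treated intestine, 147, 57.5 and 20.8 CPM in epithelium and 1726, 2110.0 and 2314 CPM in mesenchyme (log2 difference -2.61, SE 0.56, adjusted p = 0.00532). Per kb, the Col6a1 to Col6a2 level ratio was 1.27, 1.17 and 1.20 in treated intestine, 1.02, 0.920 and 0.957 in epithelium and 1.04, 1.03 and 0.998 in mesenchyme, with every treated library above the others. Col6a3 had 283, 211 and 248 CPM in treated intestine, 115, 17.3 and 8.30 CPM in epithelium and 1658, 795 and 1293 CPM in mesenchyme (log2 difference -2.33, SE 0.80, adjusted p = 0.0412).

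Col6a4 showed the lowest level in treated intestine relative to mesenchyme of the 29 members with at least 10 CPM in mesenchyme. It had 43.8, 29.6 and 33.8 CPM in treated intestine, 43.5, 35.5 and 9.44 CPM in epithelium and 737, 859 and 1159.8 CPM in mesenchyme. Treated intestine thus overlapped with epithelium and lay far below every mesenchyme library (log2 difference -4.68, SE 0.52, adjusted p = 0.000152 against mesenchyme and log2 difference 0.28, SE 0.45, adjusted p = 0.615 against epithelium). The Col6a4 to Col6a1 level ratio per kb was 0.054, 0.043 and 0.044 in treated intestine, 0.155, 0.359 and 0.254 in epithelium and 0.220, 0.211 and 0.269 in mesenchyme; treated intestine lay below both layers (exact permutation test, p = 0.1 against each, the smallest possible).

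Col6a5 had 0.232 to 0.828 CPM in treated intestine, 0.143 to 0.573 CPM in epithelium and 4.36 to 7.34 CPM in mesenchyme. It had the next lowest treated against mesenchyme value (log2 difference -3.55, SE 0.52, adjusted p = 0.000729) and likewise overlapped with epithelium. Col6a5 was named after its values were seen. Against epithelium, 4 type VI chains were higher in treated intestine (2 without treated 3), and Col6a4 and Col6a5 did not pass.

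Fibril-associated chains stood nearest to mesenchyme in summed level in treated intestine, at 48.0%, 40.9% and 53.3% of the mesenchyme mean in treated 1 to 3. By median log2 difference over members, chains of other types stood nearest to mesenchyme (-0.65, against -1.36 for fibril-associated chains). Of the 9 members, 3 passed as lower than mesenchyme (Col12a1, Col22a1 and Col20a1), where 20.4% of all genes were lower. Leaving out each library gave 2 to 5, with 5 without epithelium 1. Col12a1 was lost without treated 1, treated 2 or mesenchyme 3. In epithelium 8 of the 9 were lower. Col14a1, which binds type I fibrils, had 153, 141 and 176 CPM in treated intestine, 13.4, 3.27 and 1.53 CPM in epithelium and 174, 237 and 343 CPM in mesenchyme. Treated 3 overlapped with mesenchyme 1, and the difference did not pass (log2 difference -0.69, SE 0.57, adjusted p = 0.359), while treated intestine was far above epithelium (log2 difference 4.68, SE 0.67, adjusted p = 0.000263).

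Col12a1, a close relative of Col14a1 that also binds type I fibrils, had 85.2, 49.5 and 101 CPM in treated intestine, 17.8, 8.37 and 4.63 CPM in epithelium and 217, 174 and 257 CPM in mesenchyme (log2 difference -1.46, SE 0.43, adjusted p = 0.0218). Col16a1 had 50.7, 47.6 and 47.1 CPM in treated intestine, 16.0, 2.62 and 1.67 CPM in epithelium and 62.2, 137 and 172 CPM in mesenchyme (log2 difference -1.36, SE 0.68, adjusted p = 0.134). Col9a2, a chain of type IX collagen that coats cartilage fibrils, had 27.4, 27.2 and 26.1 CPM in treated intestine, 8.14, 0.828 and 1.24 CPM in epithelium and 40.0, 70.8 and 95.5 CPM in mesenchyme (log2 difference -1.37, SE 0.64, adjusted p = 0.113). For both of these, all treated libraries lay below all mesenchyme libraries although the test was not passed. Their adjusted p was 0.012 for Col16a1 and 0.00664 for Col9a2 in a fit of the treated and mesenchyme libraries alone. Each passed in 2 of 15 alternatives, and the highest adjusted p was 0.317 for Col16a1 and 0.287 for Col9a2.

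Chains of other types split. Col23a1, a transmembrane collagen, had 225, 203 and 235 CPM in treated intestine, 42.1, 14.4 and 7.11 CPM in epithelium and 614, 464 and 741 CPM in mesenchyme (log2 difference -1.46, SE 0.51, adjusted p = 0.0439). Col18a1 and Col15a1 encode the multiplexins of the basement membrane zone, and the end of the Col18a1 chain is known as endostatin. Col18a1 had 98.6, 74.5 and 141 CPM in treated intestine, 36.6, 13.8 and 10.8 CPM in epithelium and 204, 325 and 209 CPM in mesenchyme (log2 difference -1.23, SE 0.43, adjusted p = 0.0459). Col15a1 had 47.7, 38.8 and 45.0 CPM in treated intestine, 8.71, 1.26 and 0.811 CPM in epithelium and 127, 126 and 135 CPM in mesenchyme, and missed the threshold with groups that did not overlap (log2 difference -1.56, SE 0.61, adjusted p = 0.0662). Without epithelium 1, Col15a1 passed with an adjusted p of 0.000116. It passed in 3 of the 14 alternatives that gave an adjusted p, and the highest was 0.188.

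Col26a1 had 20.8, 25.0 and 24.9 CPM in treated intestine, 20.4, 13.2 and 20.3 CPM in epithelium and 35.5, 40.1 and 35.6 CPM in mesenchyme (log2 difference -0.65, SE 0.18, adjusted p = 0.0182 for treated and log2 difference -1.05, SE 0.18, adjusted p = 0.000637 for epithelium against mesenchyme). Of the 11 tested members of other types, 5 were lower in treated intestine than in mesenchyme (Col23a1, Col18a1, Col26a1, Col13a1 and Col7a1), where 20.4% of all genes were lower. This count was 2 without treated 1 or treated 3, and 3 without treated 2, epithelium 2, mesenchyme 1 or mesenchyme 3. In epithelium 10 of the 11 were lower than in mesenchyme. Col8a2, a short-chain collagen of endothelial basement membranes, was named after its values were seen: its 17.4, 15.3 and 24.3 CPM in treated intestine and 20.9, 14.1 and 18.6 CPM in mesenchyme overlapped (log2 difference 0.11, SE 0.47, adjusted p = 0.874), while epithelium had 2.41, 0.392 and 0.477 CPM. Col10a1, the short-chain collagen of growth plate cartilage, had 0 to 6 counts per library and was not tested.

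Col7a1, the collagen of the anchoring fibrils that tie stratified epithelia to the tissue beneath, was lower in treated intestine than in both layers. It had 1.11, 0.813 and 0.782 CPM in treated intestine, 4.50, 2.62 and 2.39 CPM in epithelium and 3.71, 3.39 and 3.93 CPM in mesenchyme. Every treated library lay below every library of the other groups, and the layers overlapped. It was lower than mesenchyme (log2 difference -2.02, SE 0.33, adjusted p = 0.00126) and lower than epithelium (log2 difference -1.81, SE 0.32, adjusted p = 0.000873). In the test for levels outside both layers (the larger p-value of the treated intestine's comparisons with each layer), Col7a1 was the 1 member that passed (adjusted p = 0.0135), against 3.83% of all genes called lower and 1.24% called higher. That is a share below the background. The adjusted p was 0.0506 without epithelium 1, 0.0722 without treated 1, 0.0891 without treated 2 and 0.105 without treated 3. A microRNA gene that is also counted, Mir711, overlaps an exon of Col7a1 on the same strand.

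Col11a2 missed the test for levels outside both layers (adjusted p = 0.0783) and passed it without mesenchyme 1 (0.0239) and with DESeq2 (0.0072). These were 2 of 14 alternatives, and the highest adjusted p among the 14 was 0.298. Col20a1, a fibril-associated chain, also had every treated library below both layers, with 0.690, 0.348 and 0.644 CPM in treated intestine, 1.06, 1.00 and 1.14 CPM in epithelium and 3.18, 2.29 and 1.70 CPM in mesenchyme, and did not pass against epithelium (log2 difference -0.91, SE 0.36, adjusted p = 0.0507). No member had all treated libraries above both layers.

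Type VI chains had the lowest summed level of the 5 chain types in treated intestine relative to mesenchyme. As a percent of the mesenchyme mean, type VI collagens summed to 17.5%, 14.7% and 16.6% in treated 1 to 3, basement membrane collagens to 24.3%, 20.7% and 24.8%, fibrillar collagens to 34.6%, 33.5% and 38.6%, other types to 39.1%, 34.4% and 45.1% and fibril-associated collagens, as above, to 48.0%, 40.9% and 53.3%. The summed mesenchyme markers stood at 46.8%, 48.5% and 48.4%, above all chain types but the fibril-associated, which was higher in treated 1 and treated 3. That sum came mostly from Vim and Pdgfra, and its members differed. By the median over its 8 genes, the list stood at 54.7%, 54.7% and 53.8%. Whether the treatment itself lowered members of this list was not tested. Foxf1 had 102, 108 and 109 CPM in treated intestine against 415, 391 and 388 CPM in mesenchyme, and Foxf2 had 32.0, 28.8 and 27.5 CPM in treated intestine against 239.8, 194 and 202 CPM in mesenchyme. Snai2 had 70.8, 84.2 and 68.4 CPM in treated intestine against 90.8, 77.1 and 92.8 CPM in mesenchyme. The endothelium list stood at 57.1%, 46.4% and 67.3%, the smooth muscle list at 80.4%, 81.5% and 70.3%, the neural crest and glia list at 68.9%, 61.8% and 73.3%, the leukocyte list at 65.9%, 60.8% and 60.1% and the low bone list at 33.7%, 30.2% and 19.5%. The low mesothelium, cartilage and skeletal muscle lists stood above the mesenchyme mean, at 102% to 257%, 169% to 219% and 126% to 204% in the order named. The mesothelium list overlapped with mesenchyme, at 52.4 CPM in treated 2 against 58.5 CPM in mesenchyme 1 and 55.6 CPM in mesenchyme 3. Of the 29 members with at least 10 CPM in mesenchyme, 24 had a mean below 46.8%, with a median of 32.5% and a range of 3.89% (Col6a4) to 106% (Col8a2). The epithelium list stood at 1334%, 1433% and 1170% of its low mesenchyme level. The part of tissue makeup in these differences was not tested.

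**Figure D4:**
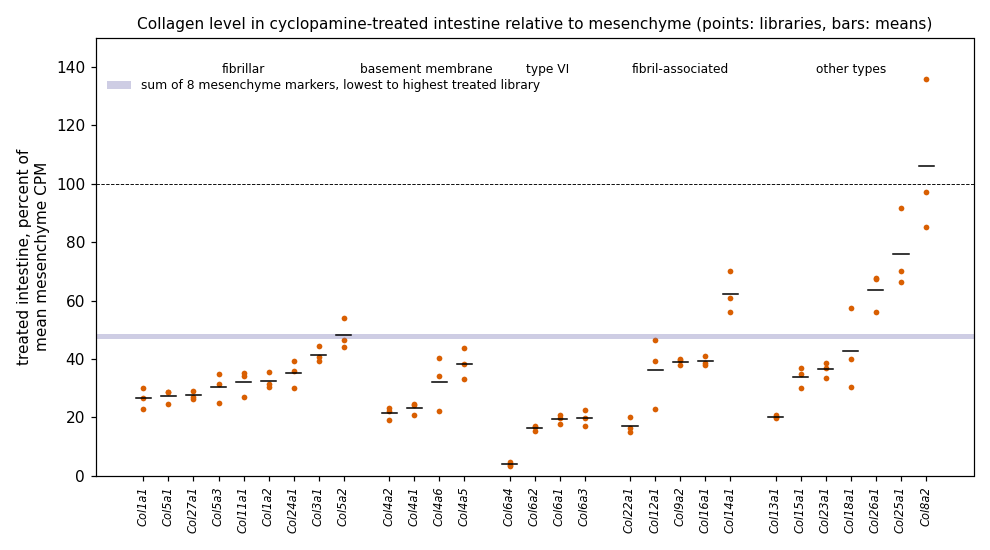
CPM in treated intestine as a percent of the mean mesenchyme CPM for the 29 collagens with at least 10 CPM in mesenchyme (points are libraries, bars are means), by chain type; the band spans the summed mesenchyme markers in the 3 treated libraries, 46.8% to 48.5%. Means of 24 of the 29 genes lie below the band, Col6a4 lowest at 3.89% and Col8a2 highest at 106%.

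Type VI and basement membrane chains also took a smaller part of the collagen transcript pool in treated intestine than in mesenchyme, and fibrillar, fibril-associated and other chains a larger part. Of summed collagen CPM per kb, type VI chains made up 20.7%, 19.2% and 18.5% in treated intestine, 26.5%, 30.6% and 18.2% in epithelium and 35.0%, 33.2% and 32.4% in mesenchyme. Fibrillar chains made up 56.2%, 59.0% and 58.4% in treated intestine, 51.9%, 46.7% and 51.4% in epithelium and 44.5%, 46.0% and 47.8% in mesenchyme. Fibril-associated chains made up 5.16%, 5.06% and 5.20% in treated intestine, 2.99%, 2.35% and 2.55% in epithelium and 2.39%, 2.92% and 3.49% in mesenchyme. Basement membrane chains made up 9.85%, 9.02% and 9.31% in treated intestine, 10.7%, 9.60% and 8.79% in epithelium and 11.8%, 12.3% and 10.9% in mesenchyme. Other chains made up 7.99%, 7.73% and 8.63% in treated intestine, 7.88%, 10.7% and 19.0% in epithelium and 6.29%, 5.66% and 5.46% in mesenchyme. Treated and mesenchyme libraries did not overlap for any of the 5 types (exact permutation test, p = 0.1, the smallest possible). By level per kb, the 5 leading chains were Col3a1, Col6a1, Col6a2, Col1a1 and Col1a2 in every group, and made up 66.0% of collagen CPM per kb in treated intestine, 59.1% in epithelium and 66.2% in mesenchyme.

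**Figure D5:**
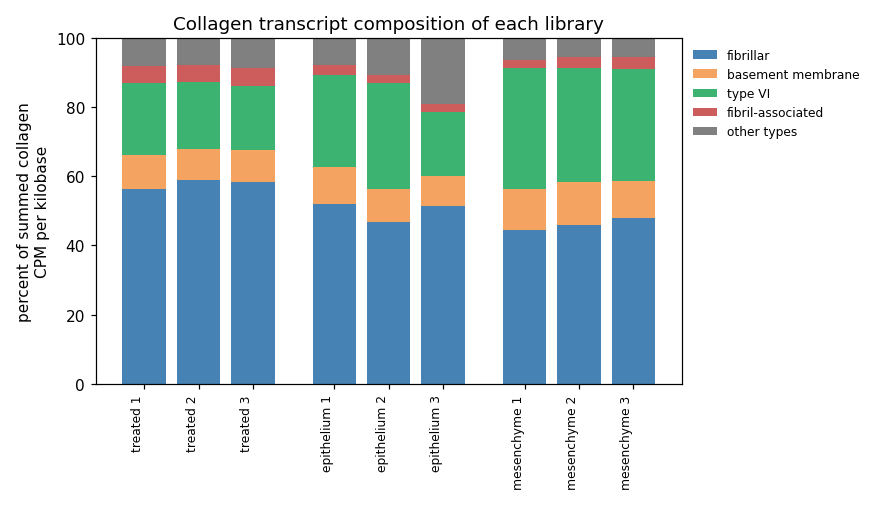
Percent of summed collagen CPM per kb of transcript taken by each chain type in each library, treated intestine first, then epithelium and mesenchyme. Type VI takes 18.5% to 20.7% in treated intestine and 32.4% to 35.0% in mesenchyme, and fibrillar chains 56.2% to 59.0% in treated intestine and 44.5% to 47.8% in mesenchyme.

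The authors' deposited table of treated intestine over mesenchyme had 29 of the 44 members lower and 0 higher at an adjusted p under 0.05, against 9.63% and 9.87% of its genes. In the authors' deposited table of mesenchyme over epithelium, 36 members were higher and 1 lower, against 23.4% and 20.8%.

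The partners of collagen were read from lists of 57 genes, of which 53 were tested. Those named below were picked for large log2 differences within their list, unless stated otherwise. In treated intestine, 32 of the 53 were lower than in mesenchyme and 0 higher, where 20.4% of all genes were lower and 20.8% higher (median log2 difference -1.06, against -0.02 over all genes). Against epithelium, 39 were higher and 6 lower in treated intestine, where 32.1% of all genes were higher and 29.8% lower. In epithelium, 45 were lower than in mesenchyme and 2 were higher, where 35.1% of all genes were lower and 34.6% higher. Among 19 genes of chain modification and folding, 14 were lower in treated intestine than in mesenchyme. Leprel1, a prolyl hydroxylase, had 9.19, 5.80 and 9.75 CPM in treated intestine, 1.43, 1.00 and 0.668 CPM in epithelium and 21.2, 28.7 and 32.9 CPM in mesenchyme (log2 difference -1.76, SE 0.27, adjusted p = 0.00108). Creb3l1, a transcription factor that drives type I collagen in bone, had 27.9, 19.8 and 23.4 CPM in treated intestine, 25.8, 20.0 and 26.5 CPM in epithelium and 142, 70.0 and 74.1 CPM in mesenchyme (log2 difference -2.00, SE 0.28, adjusted p = 0.000597).

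Of the same 19, 13 were lower in epithelium than in mesenchyme and 2 higher. The 2 higher genes, named after their values were seen, were P4hb, the shared hydroxylase subunit and disulfide isomerase, and Plod2, a lysyl hydroxylase. P4hb had 689, 715 and 723 CPM in treated intestine, 1256, 1233 and 1131 CPM in epithelium and 584, 896 and 839.7 CPM in mesenchyme. Plod3, which hydroxylates lysine and adds sugars to it, was lower in treated intestine than in both layers, with 57.9, 57.6 and 52.5 CPM in treated intestine, 164, 156 and 155 CPM in epithelium and 109.6, 147 and 134 CPM in mesenchyme (adjusted p = 0.00179 in the test outside both layers).

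Mia3, a factor that loads collagen into transport vesicles, was listed at 0 in treated 1, 2 and 3 and also in mesenchyme 1, against 103, 101 and 99.9 CPM in epithelium and 155 and 161 CPM in mesenchyme 2 and 3. Its counts were thus either 0 or high, also within mesenchyme, and the annotation and program behind the counts are not given, so a lack of transcripts and a lack of counting cannot be told apart. Its own calls are therefore not read, but Mia3 is included in the counts of partner genes. It is among the 14 of 19 and 32 of 53 lower in treated intestine than in mesenchyme, and the 6 lower than in epithelium. With Mia3 included, 2 of 53 partner genes (Plod3 and Mia3) were called lower outside both layers, near the 3.83% of all genes. Leaving out any one of the 3 epithelium libraries, any one of the 3 treated libraries or mesenchyme 3 left 1.

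Among 12 tested genes of propeptide removal and cross-linking, 10 were lower in treated intestine than in mesenchyme and all 12 were lower in epithelium, against 20.4% and 35.1% of all genes. Adamts14, a procollagen peptidase, had 0.956, 0.696 and 0.874 CPM in treated intestine, 0.573, 0.174 and 0.143 CPM in epithelium and 9.79, 6.52 and 6.82 CPM in mesenchyme (log2 difference -3.15, SE 0.42, adjusted p = 0.000418). Bmp1, which cuts the other end of procollagen, had 103, 99.1 and 97.5 CPM in treated intestine, 50.1, 31.4 and 30.5 CPM in epithelium and 302, 340.4 and 318 CPM in mesenchyme (log2 difference -1.68, SE 0.18, adjusted p = 0.000151). Lox, the cross-linking lysyl oxidase, had 66.6, 56.5 and 57.9 CPM in treated intestine, 3.52, 1.18 and 0.954 CPM in epithelium and 44.2, 34.8 and 56.6 CPM in mesenchyme. It overlapped between treated intestine and mesenchyme and did not pass (log2 difference 0.41, SE 0.36, adjusted p = 0.381).

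Of 14 tested fibril-binding proteoglycans and partners, 4 were lower in treated intestine than in mesenchyme (Fn1, Nid1, Nid2 and Aspn), a share near the 20.4% of all genes, and all 14 were lower in epithelium. Fn1, the fibronectin on which collagen fibrils assemble, had 297, 224 and 312 CPM in treated intestine, 144, 101 and 139 CPM in epithelium and 1582, 1087 and 974 CPM in mesenchyme (log2 difference -2.13, SE 0.24, adjusted p = 0.000164). Nid1, which links laminin to type IV collagen, had 178, 139.8 and 189 CPM in treated intestine, 42.3, 18.2 and 7.11 CPM in epithelium and 521, 507 and 518 CPM in mesenchyme (log2 difference -1.61, SE 0.48, adjusted p = 0.0243). Of 8 tested collagen receptors, 4 were lower in treated intestine and 6 in epithelium, against 20.4% and 35.1% of all genes. Itga11, the integrin chain for fibrillar collagen on fibroblasts, had 13.3, 9.81 and 13.3 CPM in treated intestine, 7.12, 2.70 and 0.811 CPM in epithelium and 109.6, 110.3 and 84.8 CPM in mesenchyme (log2 difference -3.06, SE 0.53, adjusted p = 0.00192).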

How the data were processed

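RNA was sequenced from 3 cyclopamine-treated whole intestine, 3 epithelium and 3 mesenchyme libraries. The submitters' processing notes name TopHat2 2.0.13, the build mm9 and DESeq; which program counted reads, with what strand setting and annotation, is not given in the sources used here. The authors deposited read counts, as whole numbers, for 24016 rows, each a RefSeq identifier, with group means (a signal of counts over size factors), their ratio or fold, and p-values and adjusted p-values, per the file headers. Symbols that spreadsheet software had turned into dates (27 rows) were renamed through RefSeq.

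Members were found by symbol. The members and the lists of chain types, partners and markers were chosen with earlier results of these data known. Counts of all 9 libraries were fitted in 1 model with edgeR 4.0.16 (R 4.3.3), using a filterByExpr minimum of 10 counts, TMM factors and the quasi-likelihood F test, two-sided, Benjamini-Hochberg adjustment over 15699 genes and a threshold of 0.05. The SE is the log2 difference over the square root of F. The method was tested on simulated data. Alternatives were DESeq2 1.42.0, median-of-ratios factors, no filter, only the groups compared, a replicate block, leaving out Rn45s, Lars2 and Mir6236, and leaving out each library. Levels per kb use GENCODE M21 transcript lengths, matched for 44 of 44 members. Summed values were compared with exact permutation tests. Replicates differed by chi-square per degree of freedom of 9.27 to 1358, more than counting noise alone. The pairs of mesenchyme 1 with mesenchyme 2 and 3 gave 1089 and 1358, and the next highest value was 32.6. These values do not tell biological from technical replicates.

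Values in every library are given for the 4 members with the highest mean CPM in each chain type, for members called outside both layers and for members called against the main direction. Up to 4 partners per list and comparison could be named, from those past the threshold with the largest log2 differences. The named partners are therefore not typical of their lists. Col21a1 has no row in the tables used here. In GENCODE M21, 5 members share exons with another counted gene: Col4a1 with Col4a2, Col7a1 with Mir711, Col9a3 with Tcfl5 and Col10a1 with Nt5dc1. Protein sequences were not used here.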

Additional observations from a re-analysis of the deposited data

How the results depend on the processing

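No alternative turned the direction of a called collagen or partner gene. Of the named members' values under the alternatives, 1228 stayed on the same side of the threshold (called or not), 13 gained a call and 54 lost one. These totals pool all comparisons. The test outside both layers cannot call a member whose differences from the layers have opposite signs, so many of its values stay by construction. Calls held in every alternative for 38 of 39 members in epithelium against mesenchyme. They held for 10 of 25 in treated intestine against mesenchyme and 32 of 35 against epithelium. Leaving out each library moved the collagens lower in treated intestine than in mesenchyme between 11 and 31 (25 with all libraries), and those lower outside both layers between 0 and 2 (1 with all, 2 with DESeq2). Partner genes lower outside both layers ranged from 1 to 3 (2 with all), and partner genes higher in treated intestine than in mesenchyme from 0 to 1 (0 with all). Partner genes higher in epithelium than in mesenchyme numbered 1 in a fit of the layers alone (2 with all). As TMM-scaled CPM, collagens made up 0.628% in treated intestine (0.753% of raw counts). Over all genes, those outside both layers numbered 601 lower and 195 higher, against 1077 and 398 with DESeq2, and leaving out each library gave 75 to 1036 lower and 25 to 411 higher. The causes were not tested.

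The labels do not say whether replicate numbers pair the libraries. Correlations of same-numbered libraries' deviations were -0.202 to 0.268, and 3 of 9 were over 0.1. Those of other-numbered libraries were -0.220 to 0.173, with 4 of 18 over 0.1, so the correlations do not settle it. With the replicate number as a block, 23 collagens were lower in treated intestine than in mesenchyme, 1 partner gene was higher there (0 without the block) and 1 was lower outside both layers (2 without). Groups of 3 cannot reach an exact p below 0.1, and depth limits the members under 1 CPM, most of all in mesenchyme 1.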
